A study of Mus musculus with 28 samples.

Results

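The comparison described here is of rod photoreceptors at postnatal day 21 (P21) with rods at postnatal day 12 (P12), ages that lie on either side of eye opening in the mouse. It uses the 4 arrays labelled P21 and the 4 labelled P12, which are 8 of the 28 arrays in the series. All 8 came from C57Bl/6 mice of the genotype Nrlp-GFP, a transgene that puts green fluorescent protein under the Nrl promoter and so marks rods, with no other allele or treatment named in the labels. Retinas were taken apart with papain, green cells were sorted to a purity of at least 97% on re-sorting, and 5 ng of RNA (integrity number over 7) was used for an Affymetrix exon array. The other ages (P2, P4, P6, P10 and P28) entered only to estimate the spread between arrays and, for P10 and P28, as a second look in other arrays. Of the genes on the array, 14860 with a single symbol were analysed, and levels are given as log2 RMA values, in which 1 unit is a 2-fold difference.

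Rods are the photoreceptors of dim light. Their outer segment holds the visual pigment and the enzyme cascade that closes cation channels when light falls, and calcium sensors then restart the synthesis of cyclic GMP so that the cell recovers. Before eye opening the rods have left the cell cycle and are lengthening their outer segments and wiring their synapses. Mature rods are known for a high rate of glycolysis and for a nucleus in which the condensed chromatin lies in the centre.

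A gene was called when its adjusted p (limma, Benjamini-Hochberg over all genes) was below 0.05 and its change was at least 2-fold. By that rule 145 genes were called, 0.976% of those tested, of which 37 rose (0.249%) and 108 fell (0.727%). Without the demand for size, 1014 genes (6.82%) passed the adjusted p, 140 of them higher (0.942%) and 874 lower (5.88%) at P21. The median change over all genes was -0.02. The arrays of the ages did not overlap for all 37 rises and for 103 of the 108 falls, and for 16.7% of all genes, but the calls come from the same arrays, so this describes them only. The rises were between 2.00-fold and 6.37-fold, and 4 of them reached 4-fold. The falls were between 2.01-fold and 21.8-fold, and 10 of them reached 4-fold. Of the 108 genes that fell, 70 had a mean under 7 at P21, close to the median of an array (6.78 to 6.91), and 22 had one at P12.

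The rod identity of the cells was checked on the 8 arrays. Nrl, whose promoter marks the sorted cells, had a mean of 10.06 ± 0.12 (SD, n = 4) at P12 and 10.02 ± 0.03 (SD, n = 4) at P21. Gnat1, the rod transducin alpha subunit, had means of 13.16 ± 0.11 and 13.28 ± 0.02, and Sag, the rod arrestin, of 12.73 ± 0.07 and 12.70 ± 0.02 (SD, n = 4 each). One array stood apart from its group. Replicate 3 of P12 was the lowest of the P12 arrays for 33 of the 37 genes that rose and, of the 108 that fell, the highest for 52 and the lowest for 36, and its correlation with the other P12 arrays over all genes, 0.987, was the lowest among the 8. Without it, 25 genes rose, 24 of them shared with the full set, and 108 fell, 88 of them shared.

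Of the rod phototransduction list, the called genes were a pair of calcium sensors. Guca1a and Guca1b encode the guanylate cyclase activating proteins, the calcium sensors that restart cyclic GMP synthesis after light. Guca1a read 11.41, 11.42, 9.35 and 11.25 in the 4 P12 arrays and 12.95, 12.97, 13.09 and 13.03 in the 4 P21 arrays. All P21 arrays lay above all P12 arrays, and replicate 3 of P12 lay about 2 units under its group. The change was 2.15 ± 0.33 (SE), or 4.43-fold, with an adjusted p of 0.000128, and without P12 replicate 3 it was 1.65 with an adjusted p of 0.000153. Guca1b read 10.74, 10.71, 9.56 and 10.43 at P12 and 11.36, 11.43, 11.34 and 11.35 at P21. Its change of 1.01 ± 0.25 (adjusted p = 0.0124) was called over all 8 arrays and not without P12 replicate 3 (0.75, adjusted p = 0.0747). The call was also lost with array weights (0.90) and without P21 replicate 2 (0.99). The ages did not overlap for either gene. Of the 22 phototransduction genes analysed, these 2 rose, where 0.249% of all genes rose, and none fell. The list's median change was 0.07 against -0.02 over all genes. Pde6b, a catalytic subunit of the rod phosphodiesterase, was at 12.45 and 12.48. The sodium, calcium and potassium exchanger gene Slc24a1 was at 10.77 and 11.07 (adjusted p = 0.246). Rgs9bp, which anchors the protein that switches transducin off, was at 8.09 ± 0.06 and 8.86 ± 0.17 (SD, n = 4 each), a change of 0.77 ± 0.26 that missed the threshold (adjusted p = 0.0750).

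Glycolytic genes formed the other group with more than 1 rise. Hk2 encodes hexokinase 2, which takes the first step of glucose use. It read 7.94, 8.10, 7.52 and 7.59 at P12 and 9.79, 10.03, 9.98 and 10.07 at P21. The change was 2.18 ± 0.22 or 4.53-fold (adjusted p = 2.34e-07), the second largest rise of all, and the gap between the ages was wider than the range within either. Pfkp, the platelet form of phosphofructokinase, read 9.32, 9.44, 8.94 and 9.35 at P12 and 10.33, 10.42, 10.53 and 10.26 at P21, a rise of 1.12 ± 0.15 (adjusted p = 1.37e-05) without overlap. Both rises were called without P12 replicate 3 as well. Of the 18 glycolysis and lactate genes analysed, 2 rose and none fell, where 0.249% of all genes rose. The median change was 0.21, and 0.14 without P12 replicate 3. A further 2 were higher at an adjusted p below 0.05 but under 2-fold, namely the monocarboxylate transporter Slc16a3 (0.69 ± 0.15) and the aldolase Aldoc (0.63 ± 0.16). Hk1, the hexokinase of most brain cells, was at 9.70 ± 0.08 and 9.56 ± 0.08 (SD, n = 4 each), a difference with an adjusted p of 0.669. Of 32 genes of the mitochondrial respiratory chain 0 were called. At the adjusted p alone 6 were lower, where 5.88% of all genes were. The median of the 32 was -0.32, and -0.25 without P12 replicate 3. The largest change among them was that of Ndufa1, a complex I subunit, at -0.91 ± 0.20 (adjusted p = 0.00567). P12 replicate 3 added to its size, at 11.06 against a median of 10.30 in the other P12 arrays. No gene of the tricarboxylic acid cycle was called out of 18, and 2 were lower at the adjusted p alone. The median was -0.23, and -0.19 without P12 replicate 3.

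**Figure D1:**
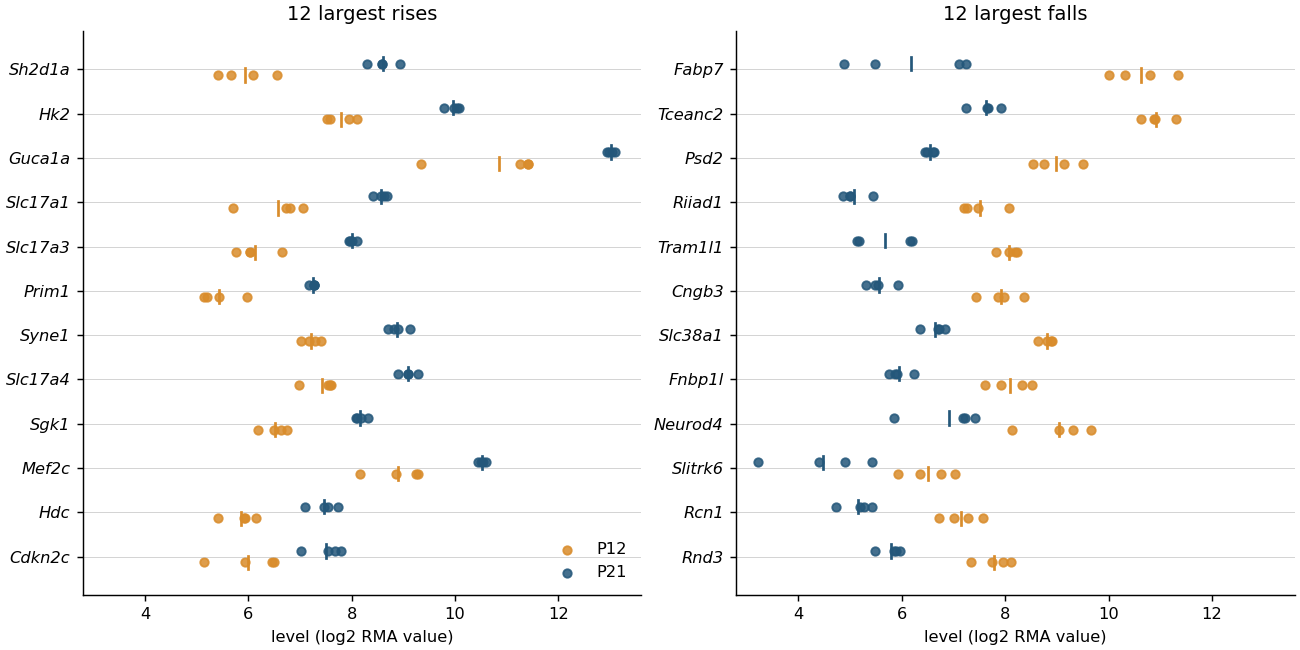
Log2 level (horizontal axis) of the 12 largest rises and 12 largest falls (rows) in each of the 4 P12 and 4 P21 arrays. Points are single arrays and ticks are group means, and for Hk2 the P21 arrays at 9.79 to 10.07 lie above the P12 arrays at 7.52 to 8.10.

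Genes of transcription and of the nucleus rose singly. Mef2c, a MADS-box transcription activator known from muscle and neurons, read 9.25, 9.29, 8.17 and 8.85 at P12 and 10.59, 10.55, 10.45 and 10.51 at P21. The change was 1.64 ± 0.20 (adjusted p = 4.02e-06), with no overlap, and was 1.40 without P12 replicate 3. Among 20 photoreceptor transcription regulators Mef2c alone was called, where 0.249% of all genes rose. Another 5 were lower at the adjusted p but under 2-fold, where 5.88% of all genes were lower at the adjusted p. They included Prdm1 (-0.83 ± 0.11), which holds back the bipolar fate, Otx2 (-0.45 ± 0.08) and Crx (-0.37 ± 0.10). Without P12 replicate 3 Crx changed by -0.38 with an adjusted p of 0.0508, just above the threshold. The list's median was -0.17. Syne1 encodes nesprin-1, a giant protein of the nuclear envelope that ties the nucleus to the cytoskeleton. The transcript cluster taken for it, the one with the higher mean over all 28 arrays, read 7.30, 7.17, 7.02 and 7.40 at P12 and 8.70, 9.13, 8.90 and 8.81 at P21, a rise of 1.66 ± 0.13 (adjusted p = 3.87e-09). The other cluster of Syne1 was the brighter at P12 (7.44 against 7.22) and the dimmer at P21 (7.71 against 8.88), so the choice of cluster favoured the one that rose. The mean of both changed by 0.97, under 2-fold. Hdac9, a class II histone deacetylase that binds MEF2 proteins, read 9.39, 9.43, 8.82 and 9.34 at P12 and 10.43, 10.46, 10.33 and 10.41 at P21 (1.17 ± 0.12, adjusted p = 4.12e-07). It was picked out after its values were seen. In the list of chromatin and nuclear architecture, 1 of 24 genes was called, where 0.727% of all genes fell. It was Hmgn3, a nucleosome-binding protein that fell from 9.03 ± 0.19 to 7.75 ± 0.28 (SD, n = 4 each). The lamin B receptor gene Lbr was at 8.61 and 8.38 (adjusted p = 0.499).

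The 3 phosphate transporter genes Slc17a1, Slc17a3 and Slc17a4 rose together. They belong to a family of anion carriers best known from kidney and intestine and stand next to each other on chromosome 13 in the RefSeq gene order. Slc17a1 read 7.06, 6.72, 5.70 and 6.80 at P12 and 8.42, 8.68, 8.57 and 8.63 at P21, a rise of 2.00 ± 0.19 (adjusted p = 8.71e-08). Slc17a3 read 6.04, 6.66, 5.76 and 6.04, then 8.10, 8.00, 7.97 and 7.94, a rise of 1.88 ± 0.18 (adjusted p = 1.34e-07). Slc17a4 read 7.60, 7.59, 6.98 and 7.55, then 9.09, 9.29, 9.09 and 8.90, a rise of 1.66 ± 0.19 (adjusted p = 3.02e-06). In each of the 3 every P21 array was above every P12 array, and replicate 3 was the lowest P12 array. Their neighbour Slc17a2 changed by 0.80 ± 0.17 (adjusted p = 0.00413), below 2-fold. In the whole gene order, 143 of the 14805 genes placed were called. Of 14784 pairs of neighbouring analysed genes 7 were both called, and in all 7 the direction was shared. They included Guca1b with Guca1a on chromosome 17, Traf3ip3 with A130010J15Rik on chromosome 1, and, among falls, Riiad1 with Celf3 on chromosome 3 and Gpcpd1 with Chgb on chromosome 2. The neighbour count was taken after the calls were known, and Slc17a1 entered it with Slc17a3 and again with Slc17a4. Since falls outnumbered rises, called genes would often share a direction without being neighbours. Whether probes of neighbouring genes could detect transcripts that run from one into the next was not tested.

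The largest rise of all belonged to Sh2d1a, an adaptor of lymphocyte receptor signalling. It read 6.55, 6.10, 5.41 and 5.67 at P12 and 8.94, 8.59, 8.30 and 8.58 at P21, a change of 2.67 ± 0.26 or 6.37-fold (adjusted p = 2.06e-07). Every P21 array exceeded every P12 array by more than 1 unit. Sgk1, a kinase induced by glucocorticoids and by cell stress, rose by 1.65 ± 0.18 (adjusted p = 5.97e-07), from 6.49, 6.64, 6.19 and 6.74 to 8.18, 8.31, 8.10 and 8.08. Hdc, which makes histamine from histidine, rose by 1.60 ± 0.14 (adjusted p = 5.13e-08), from 5.94, 5.91, 5.42 and 6.15 to 7.55, 7.73, 7.47 and 7.10. These low P12 levels lie under the array medians, where RMA compresses differences. Prim1, the DNA primase subunit, read 5.98, 5.14, 5.20 and 5.44 at P12 and 7.27, 7.27, 7.18 and 7.28 at P21 (1.80 ± 0.30, adjusted p = 0.000316). At P2, when the last progenitors divide, Prim1 had been at 7.60 ± 0.74 (SD, n = 3), so that its course ran down and up again. Cdkn2c, the cell cycle inhibitor p18, read 5.93, 6.45, 6.49 and 5.14, then 7.55, 7.80, 7.68 and 7.02 (1.51 ± 0.37, adjusted p = 0.0117), and lost its call without P12 replicate 4 (1.22, adjusted p = 0.0545). None of the 31 genes of the cell cycle list, which holds neither of them, was called, and their median change was 0.00. Without P12 replicate 3, or without P21 replicate 3, the cyclin-dependent kinase gene Cdk6, at -0.98 over all arrays (adjusted p = 0.0118), was called lower. Bcl2, which restrains cell death, was the only one of 19 cell death genes called, where 0.249% of all genes rose. It read 7.44, 7.49, 7.02 and 7.56, then 8.36, 8.53, 8.28 and 8.35 (1.00 ± 0.15, adjusted p = 7.29e-05), at the 2-fold threshold. Its change was under 2-fold without P12 replicate 3 (0.88), without P21 replicate 2 (0.95) and with array weights (0.94).

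**Figure D2:**
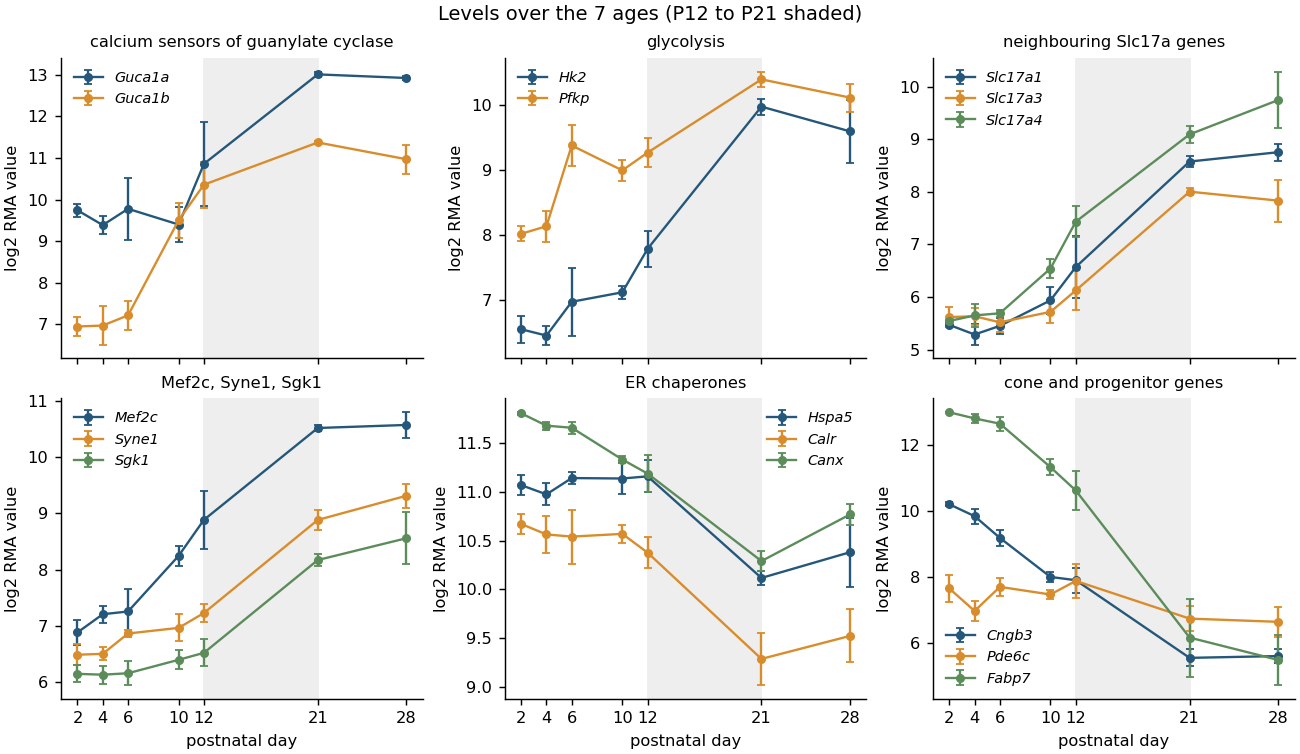
Mean log2 level (vertical axis) of named genes at the 7 ages (horizontal axis, postnatal day), with bars of 1 SD over 3 arrays at P2, 5 at P28 and 4 at other ages and the interval from P12 to P21 shaded. Guca1a rises from 10.86 at P12 to 13.01 at P21, whereas Fabp7 falls from 10.62 at P12 to 6.18 at P21.

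The promoters of the risen genes were read from RefSeq (build GRCm38.p6), from 250 bases before to 50 bases after each start. Short elements were searched on both strands, and the element AGGTCA, whose reverse complement is TGACCT, is shown because more of the risen genes held it than held any other element searched. AGGTCA is the core bound by orphan nuclear receptors such as those of the ROR, REV-ERB and ESRR families. It was present in 11 of the 30 risen genes with a promoter in the table (36.7%), in 9 of 83 fallen genes (10.8%) and in 16.0% of 11869 genes analysed. Counted over promoters, since many genes have several starts, it was in 30.4% of those of risen genes, 7.8% of those of fallen genes and 13.7% of all. The choice of element followed the counts, so these shares are a description. Of the 12 genes with the largest rises, 10 had a promoter and 6 held the element. These are printed below 5′ to 3′ on the coding strand with the element in capitals, and the interval, strand and distance to the start follow.

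Guca1a: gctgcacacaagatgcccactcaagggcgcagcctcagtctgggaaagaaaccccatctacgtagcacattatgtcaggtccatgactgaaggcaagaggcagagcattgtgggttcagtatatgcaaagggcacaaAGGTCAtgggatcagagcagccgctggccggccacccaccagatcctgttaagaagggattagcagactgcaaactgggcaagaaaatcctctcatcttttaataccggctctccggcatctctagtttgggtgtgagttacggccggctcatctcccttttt
Slc17a1: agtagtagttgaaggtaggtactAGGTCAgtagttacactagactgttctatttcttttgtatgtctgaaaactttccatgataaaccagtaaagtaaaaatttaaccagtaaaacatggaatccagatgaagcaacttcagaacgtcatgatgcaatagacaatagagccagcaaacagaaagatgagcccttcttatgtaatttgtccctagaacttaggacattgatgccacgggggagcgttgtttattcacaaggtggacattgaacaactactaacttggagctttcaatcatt
Syne1: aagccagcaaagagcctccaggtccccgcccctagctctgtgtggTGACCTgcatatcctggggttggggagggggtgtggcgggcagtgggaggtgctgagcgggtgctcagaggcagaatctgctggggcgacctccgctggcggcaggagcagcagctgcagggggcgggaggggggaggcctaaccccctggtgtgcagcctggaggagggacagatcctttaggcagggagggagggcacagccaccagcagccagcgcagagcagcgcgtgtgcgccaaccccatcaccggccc
Sgk1: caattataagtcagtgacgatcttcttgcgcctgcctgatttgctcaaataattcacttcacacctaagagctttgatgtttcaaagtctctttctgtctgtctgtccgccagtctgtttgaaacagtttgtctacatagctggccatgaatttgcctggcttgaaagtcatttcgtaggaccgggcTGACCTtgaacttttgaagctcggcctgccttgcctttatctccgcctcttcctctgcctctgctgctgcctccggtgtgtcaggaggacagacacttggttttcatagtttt
Mef2c: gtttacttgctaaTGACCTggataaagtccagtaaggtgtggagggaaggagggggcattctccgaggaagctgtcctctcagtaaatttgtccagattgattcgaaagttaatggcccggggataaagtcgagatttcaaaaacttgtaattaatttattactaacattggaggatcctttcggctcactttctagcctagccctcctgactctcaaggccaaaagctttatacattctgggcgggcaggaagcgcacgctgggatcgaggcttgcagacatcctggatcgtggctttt
Cdkn2c: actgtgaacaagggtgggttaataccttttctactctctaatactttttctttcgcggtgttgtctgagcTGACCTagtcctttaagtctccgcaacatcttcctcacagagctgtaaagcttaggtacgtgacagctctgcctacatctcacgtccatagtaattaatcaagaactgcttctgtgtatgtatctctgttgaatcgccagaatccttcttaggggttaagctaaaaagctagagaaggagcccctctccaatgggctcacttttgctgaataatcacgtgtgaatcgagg

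In Guca1a (chr17:47400557-47400856, minus strand) the element lies 113 bases before the start, and a CRX site, TAATCC on either strand, lies 57 bases before it. The interval for Slc17a1 is chr13:23868768-23869067 on the plus strand, with the element at 227 bases before the start. For Syne1 (chr10:5550643-5550942, minus strand) it lies at 205 bases, for Sgk1 (chr10:21978422-21978721, plus strand) at 63 bases, for Mef2c (chr13:83523406-83523705, plus strand) at 237 bases and for Cdkn2c (chr4:109665323-109665622, minus strand) at 180 bases. In Guca1a and Slc17a1 it reads AGGTCA on the coding strand, and in the other 4 it reads TGACCT. Not every start of these genes holds it, since it was in 1 of 3 starts of Syne1, 2 of 6 of Sgk1, 2 of 3 of Mef2c and 1 of 2 of Cdkn2c, and the starts printed are among those that do. The CRX site was in 13.3% of risen, 6.0% of fallen and 7.3% of all genes. The NRL site TGCTGA, whose last letters can overlap TGACCT, was in 6 of the 30 risen genes, in 24.1% of fallen and in 19.7% of all genes. The E-box CACGTG was in 6.7%, 4.8% and 10.2%. The cAMP response element TGACGTCA was in 6.7%, 3.6% and 2.7%, and the D-box TTANGTAA in 3.3%, 1.2% and 2.2%. Of the nuclear receptors that read such elements, Esrrb was at 8.62 ± 0.29 and 8.97 ± 0.04 (0.35 ± 0.11, adjusted p = 0.0628), Rorb at 10.86 and 10.82, and Rora at 9.54 and 9.40, and none was called.

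The largest fall was that of Fabp7. This gene, the brain fatty acid binding protein of radial glia and neural progenitors, read 10.01, 10.32, 11.34 and 10.81 at P12 and 4.89, 7.25, 7.10 and 5.48 at P21. The change was -4.44 ± 0.40, a 21.8-fold fall (adjusted p = 5.65e-08), and the P21 arrays differed among themselves by more than 2 units while staying under every P12 array. Neurod4, a proneural basic helix-loop-helix factor, read 9.32, 9.66, 8.14 and 9.04, then 5.84, 7.18, 7.23 and 7.41 (-2.12 ± 0.37, adjusted p = 0.000509), with no overlap. Of the 15 progenitor markers analysed Fabp7 alone was called, where 0.727% of all genes fell, and the list's median change was 0.03. Pax6 passed the adjusted p under 2-fold (-0.93 ± 0.29, adjusted p = 0.0487) and was called without P12 replicate 3. The summed level of the list, over unlogged values, was 2637 to 4130 in the P12 arrays and 1588 to 1799 in the P21 arrays, and over the 14 members other than Fabp7 it was 1531 to 1877 and 1535 to 1754. In such bulk samples, fewer cells of a type and less RNA per cell cannot be told apart.

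Of the cone markers, 2 fell and none rose. Cngb3, the beta subunit of the cone cation channel, read 7.87, 7.97, 8.36 and 7.44 at P12 and 5.31, 5.54, 5.49 and 5.92 at P21, a fall of 5.08-fold (-2.35 ± 0.16, adjusted p = 2.67e-09) with a gap of more than 1 unit between the ages. Pde6c, the cone phosphodiesterase, read 8.18, 8.13, 7.13 and 8.12, then 6.39, 6.60, 6.77 and 7.25 (-1.14 ± 0.25, adjusted p = 0.00413). Its ages overlapped through P12 replicate 3. These were 2 of 15 markers, where 0.727% of all genes were called lower, and the list's median change was -0.67 against -0.02 over all genes. Opn1sw, the short-wave cone pigment, read 9.12, 9.87, 8.14 and 9.05, then 7.31, 8.16, 8.07 and 8.06, and missed the threshold (-1.15 ± 0.38, adjusted p = 0.0707) unless replicate 3 of P12 was left out. The cone transducin subunit Gnb3 (-0.97 ± 0.21) and its partner Gngt2 (-0.79 ± 0.23) passed the adjusted p below 2-fold. In contrast the cone arrestin Arr3 was at 6.91 ± 0.68 and 6.92 ± 0.43 (SD, n = 4 each). Summed over the 15 markers, the linear level was 3306 to 4276 at P12 and 1601 to 2569 at P21. Whether cones in the sort or cone transcripts within rods carried this signal was not tested.

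Among genes that build axons, dendrites and contacts, all calls were falls. Of 28 genes of neurite growth and migration 4 fell and none rose, where 0.727% of all genes fell, and 9 (these 4 included) were lower at the adjusted p, where 5.88% of all genes were. The median change was -0.35. From P10 to P28, in other arrays, 0 of the 28 were called, and the 4 genes changed by -0.89 (Epha7), -0.57 (Plxna2), -0.64 (Slit2) and -0.75 (Cntn1). The called genes were Epha7 (-1.22 ± 0.18), a receptor of repulsive ephrin guidance, Plxna2 (-1.11 ± 0.17), a semaphorin receptor, Slit2 (-1.06 ± 0.21), a repulsive guidance ligand, and Cntn1 (-1.05 ± 0.19), an axonal adhesion molecule. Epha7 read 7.45, 7.38, 7.41 and 7.08 at P12 and 5.93, 6.18, 6.32 and 6.00 at P21, so that no P21 array reached the P12 range. With P28 in place of P21 all 4 were under 2-fold (-0.97 for Epha7), and with P10 in place of P12 Slit2 was. Epha7 kept its call under every other alternative. Plxna2 also lost its call without P12 replicate 3 (-0.92) and when arrays were rescaled, and Slit2 without P12 replicate 2 (-0.95). Cntn1 also lost its call without P12 replicate 1 (-0.97), without P12 replicate 2 (-0.99) or without P21 replicate 1. Rnd3, an atypical small GTPase that loosens actin fibres, fell by 1.98 on the log2 scale, from 8.12, 7.95, 7.33 and 7.74 to 5.89, 5.85, 5.48 and 5.97. Slitrk6, a neuronal membrane protein with leucine-rich repeats, read 6.76, 6.36, 5.92 and 7.02, then 4.39, 3.21, 5.42 and 4.90 (-2.03 ± 0.36, adjusted p = 0.000502). Fnbp1l, which links membrane curvature to actin, fell by 2.15 on the log2 scale.

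The secretory pathway had 2 called chaperones. Hspa5 (BiP), the chief folding chaperone of the endoplasmic reticulum, read 11.01, 11.06, 11.38 and 11.18 at P12 and 10.11, 10.03, 10.17 and 10.17 at P21 (-1.04 ± 0.13, adjusted p = 8.31e-06). Calr, the lectin chaperone calreticulin, read 10.24, 10.36, 10.60 and 10.31, then 9.01, 9.43, 9.59 and 9.13 (-1.08 ± 0.15, adjusted p = 2.35e-05). The ages were separate for both. They lie at the edge of 2-fold. Hspa5 fell under it without P12 replicate 3 (-0.96) and with array weights (-0.99), and Calr without P21 replicate 1 (-0.99). Both lost their call when arrays were rescaled. Of 19 chaperone genes 2 fell, none rose and 8, these included, were lower at the adjusted p, against 0.727% and 5.88% of all genes. The list's median was -0.19, and -0.33 without P12 replicate 3. The other 6 were Pdia4 (-0.93), Hsph1 (-0.90), Canx (-0.89), Pdia3 (-0.88), Pdia6 (-0.55) and Hsp90b1 (-0.41), of which all but Hsph1 work in the endoplasmic reticulum. Other falls belong to the same compartment. Rcn1, a calcium-binding protein of its lumen, read 6.71, 7.57, 7.29 and 7.01, then 5.43, 5.20, 4.72 and 5.27 (-1.99 ± 0.25, adjusted p = 7.39e-06). Tram1l1, related to the translocation protein TRAM1, read 7.82, 8.19, 8.23 and 8.07, then 5.14, 5.17, 6.19 and 6.16 (-2.41 ± 0.30, adjusted p = 7.15e-06).

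Other large falls had no group of their own. Tceanc2 read 10.88, 10.90, 11.31 and 10.62 at P12 and 7.67, 7.25, 7.92 and 7.64 at P21 (-3.31 ± 0.34, adjusted p = 3.27e-07) in its brighter transcript cluster, while its second cluster changed by -0.41. Psd2, an exchange factor for small ARF proteins, read 8.75, 9.14, 9.50 and 8.53, then 6.45, 6.49, 6.61 and 6.62 (-2.44 ± 0.18, adjusted p = 3.45e-09). Every P21 array lay far below every P12 array. Slc38a1, a glutamine carrier, read 8.81, 8.88, 8.90 and 8.63, then 6.70, 6.35, 6.83 and 6.71 (-2.16 ± 0.16, adjusted p = 3.02e-09). Riiad1 read 7.21, 7.27, 8.07 and 7.47, then 5.00, 4.86, 5.44 and 4.99 (-2.43 ± 0.26, adjusted p = 7.58e-07). Its chromosomal neighbour Celf3, a neuronal splicing regulator, fell 2.28-fold and was the only called gene of 21 splicing regulators. In the ribbon synapse list 1 of 22 genes fell, the vesicle protein Sv2a (-1.05 ± 0.17), which lost its call without P21 replicate 1 (-0.91) and when arrays were rescaled. A further 6 of that list were lower at the adjusted p alone, among them Sv2b (-0.50), Egflam (-0.56), the dystroglycan ligand pikachurin, and Syp (-0.40). Over all genes 0.727% were called lower and 5.88% were lower at the adjusted p.

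**Figure D3:**
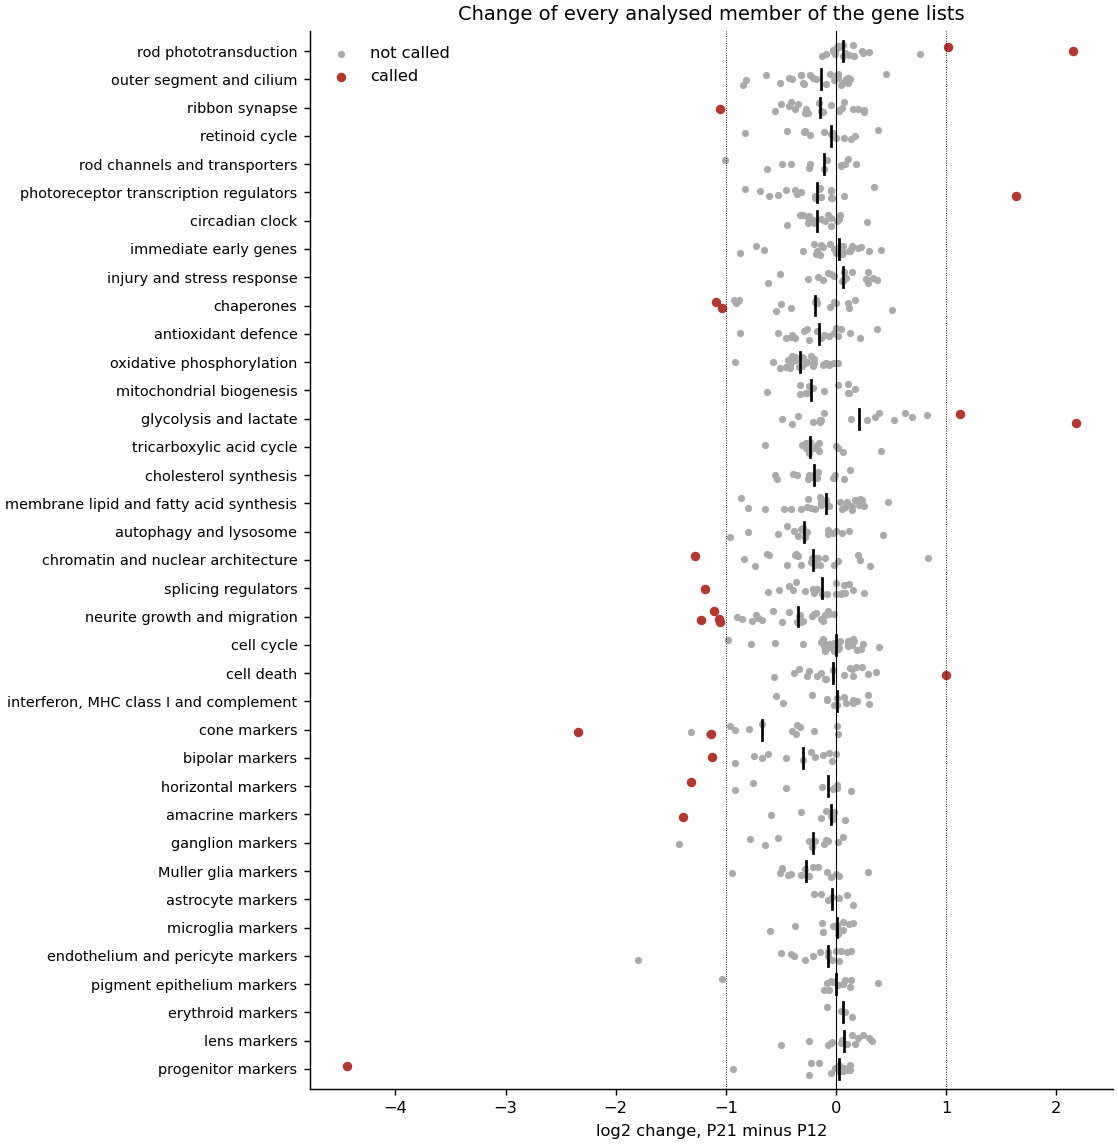
Log2 change from P12 to P21 (horizontal axis) of every analysed member of each gene list (rows). Points are genes (red where called), black ticks are list medians and dotted lines mark 2-fold, and cone markers have the lowest median at -0.67 while phototransduction and glycolysis lie at 0.07 and 0.21.

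Many groups held no called gene. None of 26 outer segment and cilium genes was called, and 4 were lower at the adjusted p alone, where 5.88% of all genes were lower at the adjusted p. These 4 were led by Cdhr1 (-0.84 ± 0.12), a cadherin of the outer segment base, and Impg2 (-0.81 ± 0.12), a matrix proteoglycan around photoreceptors. P12 replicate 3 added to the size of both falls. It read 10.98 for Cdhr1 and 12.18 for Impg2, against medians of 10.42 and 11.61 in the other P12 arrays. No gene was called among 13 of the retinoid cycle, 13 rod channels and transporters, 14 of mitochondrial biogenesis, 20 of antioxidant defence, 16 of cholesterol synthesis, 27 of membrane lipid synthesis or 15 of interferon and complement. Atp1b1, a sodium pump subunit among the rod transporters, changed by -1.01 with an adjusted p of 0.153, and was called lower without P12 replicate 3. Of the 18 genes of the circadian clock none passed even the adjusted p. The largest change there was that of Dbp, a clock output factor, at -0.45 ± 0.14 (adjusted p = 0.0511). The labels do not give the hour at which the mice were killed. Of 27 immediate early genes, which respond within minutes to neuronal activity, none was called and 3 were lower at the adjusted p, where 5.88% of all genes were. These 3 were Fos (-0.87 ± 0.19), Egr1 (-0.73 ± 0.14) and Jun (-0.65). Among autophagy and lysosome genes, 0 of 18 were called, and the cathepsins Ctsl (-0.96 ± 0.14) and Ctsd (-0.80 ± 0.16) were the lowest.

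Markers of other retinal cells were read beside these results. Single genes fell among bipolar markers (Isl1, 1 of 13), horizontal markers (Prox1, 1 of 10) and amacrine markers (Tfap2b, 1 of 11), where 0.727% of all genes fell. At the adjusted p, with these included, 2 bipolar, 3 horizontal and 2 amacrine markers were lower, where 5.88% of all genes were. The bipolar marker beside Isl1 was Otx2, which is also one of the photoreceptor transcription regulators above and enters the bipolar sum below. Isl1 read 7.76, 8.10, 6.50 and 7.45, then 6.09, 6.37, 6.50 and 6.37, and its ages met at P12 replicate 3. Without P12 replicate 2 its change was -0.91, under 2-fold. Prox1 changed by -1.31 ± 0.32 (adjusted p = 0.0113), and Tfap2b by -1.39 ± 0.42 (adjusted p = 0.0429), a call lost in 10 of the 16 alternatives. Without P12 replicate 3 the bipolar count was 3, with Grik1 and Lrtm1 added. Summed linear levels ran from 4679 to 5914 at P12 against 3741 to 4066 at P21 for bipolar markers, from 3462 to 3940 against 2236 to 2439 for horizontal markers and from 1813 to 2283 against 1465 to 1718 for amacrine markers. The median change of the members was -0.30 for bipolar, -0.07 for horizontal and -0.04 for amacrine markers, against -0.02 over all genes. Nothing was called among 12 ganglion cell markers, 17 of Muller glia, 7 of astrocytes, 13 of microglia, 15 of endothelium and pericytes, 12 of pigment epithelium, 4 erythroid and 14 lens markers. Nefm, a ganglion cell neurofilament, changed by -1.42 with an adjusted p of 0.0658, and Dbi, a Muller glia marker, by -0.95 ± 0.22 (adjusted p = 0.00804). For Muller glia the summed level was 6199 to 7581 at P12 and 4217 to 5834 at P21, and for ganglion cells 1925 to 3059 and 1451 to 1848. The part these cells play in the falls was not tested.

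A wider interval was read in other arrays by comparing P28 with P10, ages whose arrays do not enter the difference between P21 and P12. It also takes in the changes from P10 to P12 (1.46 for Guca1a) and from P21 to P28. Both comparisons come from the same fit and share its estimate of the spread of each gene, so their calls are not fully independent. From P10 to P28, 274 genes were called (1.84%), 83 higher (0.559%) and 191 lower (1.29%). All 37 genes that rose from P12 to P21 were also higher at P28 than at P10, where 44.5% of all genes were higher, and 32 of them were called, which is 86.5% of the 37 and 38.6% of the 83. Of the 108 that fell, 106 were lower at P28 than at P10, where 55.5% of all genes were lower, and 71 were called, 65.7% of the 108 and 37.2% of the 191. Spcs2 and Itm2a had the opposite sign. Without P12 replicate 3, 24 of the 25 rises (96.0%) and 66 of the 108 falls (61.1%) were called in these other arrays. Guca1a changed by 3.52 ± 0.32 from P10 to P28, Slc17a4 by 3.20 ± 0.18, Hk2 by 2.47 ± 0.21, Fabp7 by -5.82 ± 0.38, Cngb3 by -2.39 ± 0.16 and Hspa5 by -0.75 ± 0.12. Gnat2, the cone transducin, which had changed by -1.31 ± 0.46 from P12 to P21 (adjusted p = 0.0951), changed by -0.10 from P10 to P28.

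**Figure D4:**
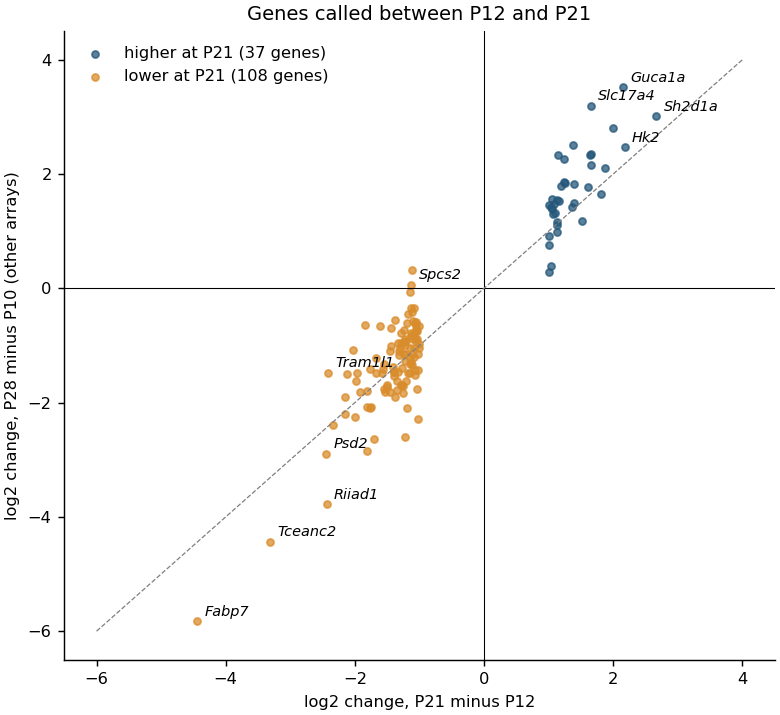
Log2 change from P10 to P28 (vertical axis) against log2 change from P12 to P21 (horizontal axis) for the 145 called genes, 1 point per gene, with a dashed line of equal change. The 37 risen genes all lie above 0 on the vertical axis, and 106 of the 108 fallen genes lie below 0.

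The neighbouring intervals were read as well. From P10 to P12 no gene was called by limma, with 4 (0.0269%) at the adjusted p alone and 803 at an unadjusted p below 0.05, and from P21 to P28 23 genes were called (0.155%), 4 higher (0.0269%) and 19 lower (0.128%). These intervals share arrays with the comparison of P21 and P12, so their values are set side by side only. For the 37 risen genes the median change was 0.27 from P10 to P12, 1.23 from P12 to P21 and 0.03 from P21 to P28. The 108 fallen genes had medians of 0.03, -1.27 and 0.06. Of the risen genes 16 had their highest mean of the 7 ages at P21 and 19 at P28. Of the fallen genes 59 had their lowest mean at P21 and 39 at P28. After P21, Olfr1372-ps1, Duxbl1 and Dynlrb2 fell further and Spcs2 rose again among the 108, each called, and none of the 37 risen genes was called in either direction.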

How the data were processed

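Sorted rods of 7 ages were measured on 28 Affymetrix Mouse Exon 1.0 ST arrays. Values are log2 levels that the authors deposited, made per the submitters' processing notes by RMA with the Affymetrix Expression Console (version 1.3.1.187), 1 value per gene from the core annotation on mm8. RMA compresses differences of dim and of saturated genes, and no detection call was used. That the scale is log2 follows from the range of the values. Array precision is limited by the number of arrays.

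Of 16755 transcript clusters, 14996 had 1 gene symbol in the platform annotation, 1019 had several and 740 none, and 14941 matched the RefSeq table by Entrez number. For 135 genes with several clusters the brightest was taken, which left 14860 genes. Groups follow the ages in the labels. Nothing in the labels ties an array to an animal or litter, and the p-values cover only the spread among these samples, which may be technical. Replicate numbers are carried by each age, and a check of the arrays' deviations did not settle whether they pair the arrays.

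limma 3.58.1 in R 4.3.3 fitted 1 mean per age to all 28 arrays (21 residual degrees of freedom), with eBayes and Benjamini-Hochberg adjustment over all genes. Errors are moderated SE for changes and SD over arrays for levels. The fit was tested on simulated data. Named genes were the 12 largest rises and 12 largest falls among called genes whose ages did not overlap, leaving out uncharacterised models, plus every called list member and, for a list with none, up to 2 members with the largest change. Other genes were chosen after their values were seen. The comparison, the 37 gene lists and the elements searched were chosen with earlier results of these data known, so they are not independent of them. Alternatives were another scaling, a filter on dim genes, variance moderation, arrays fitted, array weights, a replicate block, 1.5-fold, single arrays left out, another age and the mean of clusters. Promoter sequences are RefSeq's, build GRCm38.p6. Several listed genes were not analysed here.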

Additional observations from a re-analysis of the deposited data

Results flagged for a closer look

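Of 172 groups of 4 arrays examined for the named genes, 17 held an array whose gap to the nearest of the others was unusually wide for the group's range (Dixon's test), and chance gives about 1 in 20. P12 replicate 3 accounted for 10 of them. It was low for Guca1a (9.35 against a median of 11.41 in the other P12 arrays), Slc17a4 (6.98 against 7.59), Pde6c (7.13 against 8.13) and Atp1b1 (6.92 against 8.54). It was high for Cdhr1 (10.98 against 10.42), Impg2 (12.18 against 11.61), Rbp3 (11.97 against 11.10), Ndufa1 (11.06 against 10.30), Fads2 (8.35 against 7.48) and Plxna2 (10.05 against 9.30). Tfap2b was high in P12 replicate 2 (8.14 against 7.21). At P21, Neurod4 was low in replicate 1 (5.84 against 7.23) and Prdx2 high in it (8.74 against 8.21). In P21 replicate 2 Crym (6.43 against 7.40) and Rgs5 (5.70 against 6.51) were low, as were Prim1 (7.18 against 7.27) and Fos (6.22 against 6.48) in P21 replicate 3.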

How the results depend on the processing

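For P21 against P12 the counts moved by over 1.5 times with a 1.5-fold threshold (487 genes called, 81 higher and 406 lower), with P28 in place of P21 (223 called, 188 lower) and with P10 in place of P12 (70 higher). For P28 against P10 a 1.5-fold threshold gave 950, 252 and 698. Leaving out 1 array at a time gave 123 to 147 called, 25 to 41 higher and 89 to 112 lower, and for P28 against P10 265 to 318, 76 to 95 and 185 to 227. With cyclic loess 130 genes were called (43 higher, 87 lower), with values quantile normalized again 132 (45 and 87), and with array weights 161 (31 and 130). The replicate block gave 146 genes called (37 higher, 109 lower, 144 shared) and, for P28 against P10, 280 (77 and 203). Same-numbered P12 and P21 arrays had correlated deviations of 0.09, 0.13, 0.02 and 0.29. P12 replicates 2 and 4 correlated best with the P21 array of their own number. P12 replicate 1 correlated best with P21 replicate 2 (0.17), and P12 replicate 3 with P21 replicate 1 (0.03). P12 replicate 4 also correlated with P21 replicate 3 (0.21). The check does not settle whether the numbers pair the arrays. Of the 40 named called genes 28 kept their call under every alternative in which they were tested other than the age substitutions, 12 lost it under at least 1, and none reversed. The cause was not tested. Scaling moved the median of all genes from -0.02 to 0.00 and 0.02. The array count limits the precision. Dim levels, where RMA compresses differences, limit how large a fall can read, and the lowest value of a gene on the P12 and P21 arrays was 1.99.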

Other observations

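Several called genes outside the lists are given here, picked after their values were seen, so they stand for no group. Scg3, which sorts granule cargo, fell by 1.97 on the log2 scale (9.11, 8.84, 8.84 and 8.65 at P12, then 6.81, 6.26, 7.16 and 7.31 at P21). Chgb, a granule protein, fell by 1.38 (adjusted p = 1.09e-07), Cadps, which primes granules for release, by 1.45 (adjusted p = 0.00196) and Cplx2, a complexin of conventional synapses, by 1.03 (adjusted p = 0.00176). Without P12 replicate 3 the change of Cplx2 was -0.77, under 2-fold. For each of these 4 genes no P21 array reached the P12 range. The changes from P10 to P28 were -1.47, -1.90, -1.09 and -1.76 in that order.

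Some adhesion genes were picked in the same way. Dscam read 7.84, 8.10, 8.42 and 7.72, then 6.02, 6.21, 6.40 and 6.20 (-1.81 ± 0.14, adjusted p = 3.87e-09), and Lrp4, an organiser of synapses at muscle, changed by -1.81 ± 0.14. Nrxn3 (-1.18), Ptprd (-1.24) and Negr1 (-1.07, and -0.99 without P12 replicate 3) were lower as well, with -0.73 for Ptprd from P10 to P28, and Gpm6a, a growth cone membrane protein, by -1.84 ± 0.35, with -0.64 from P10 to P28 (adjusted p = 0.269). Gldc, the glycine decarboxylase, fell by 1.55 and the glutamate carrier Slc1a1 by 1.25. Among rises, the cation channel gene Trpc1 changed by 1.25 ± 0.17 and by 2.26 from P10 to P28, and the kinase gene Mast2 by 1.09 ± 0.09.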
